A study of Mus musculus with 6 samples.

Results

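The genes described here are the mouse Wnt module, 57 protein-coding genes of the 36047 genes summed from the deposited files. The rule that picks the members uses gene names and annotation and no measured value. They are the genes whose symbols begin with Wnt, Fzd, Sfrp or Dkk and then a digit, together with the co-receptors Lrp5, Lrp6, Ror1 and Ror2, the destruction complex genes Axin1, Axin2, Apc and Gsk3b with Ctnnb1, the nuclear factors Lef1, Tcf7, Tcf7l1 and Tcf7l2, and Rnf43, Znrf3, Nkd1, Notum, Wif1, Porcn and Wls. By role they comprised 19 ligands, 2 secretion genes, 14 receptors and co-receptors, 10 antagonists, 3 genes of receptor turnover and feedback, 5 genes of the destruction complex with beta-catenin, and 4 nuclear factors.

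PolyA RNA was sequenced from MLE-12, an immortalised mouse lung epithelial line whose large T antigen was driven by a surfactant protein C promoter in the transgenic mouse it came from. The cells were labelled wild type. In 3 libraries (CSE) the cells had received 5% cigarette smoke extract of optical density 2.0, an aqueous solution of smoke, and in 3 libraries (PBS) an equal volume of phosphate-buffered saline; both were given at 30% cell density and left for 24 h. Both groups come from this 1 line and share its large T antigen.

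Wnt proteins are secreted, lipid-modified ligands: Porcn attaches the lipid and Wls carries the ligand to the cell surface. Binding to a Frizzled receptor with Lrp5 or Lrp6 stops the complex of Axin, Apc and Gsk3b from marking beta-catenin for breakdown, and beta-catenin then acts with Tcf and Lef factors in the nucleus, while Ror1 and Ror2 serve beta-catenin-independent branches. In the mouse lung, Wnt7b is a ligand of the developing epithelium, and Axin2, a feedback gene of the beta-catenin branch, marks a subset of alveolar type 2 cells.

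Libraries held 12093009 to 24050167 estimated counts in CSE and 13647897 to 19486697 in PBS, and 3 counts, the limit taken for a count of 0, correspond to 0.126 to 0.250 CPM (counts scaled to library size). Of the markers of the labelled cell type, Krt19 averaged 493 TPM in CSE and 1005 TPM in PBS (TPM, the length-corrected transcript abundance), Krt8 159.8 and 206 TPM, Abca3 31.01 and 34.7 TPM, and Etv5 14.5 and 14.5 TPM. Cdh1 averaged 2.98 TPM in CSE and 6.04 TPM in PBS, Epcam 1.54 and 2.36 TPM, Krt18 0.169 and 0.356 TPM and Sftpc 0.942 and 3.09 TPM, and Sftpa1 was listed at 0 in all 6 libraries. Sftpc was called lower in CSE (log2 change -1.57 ± 0.37 SE, edgeR adjusted p = 0.0205). The remaining alveolar type 2 markers were low. Sftpb averaged 1.07 TPM in CSE and 1.25 TPM in PBS, Lyz2 0.841 and 0.825 TPM, Sftpd 0.0265 and 0 TPM, and Lamp3 0.00656 and 0.0327 TPM. The defining endothelial gene Cdh5 was listed at 0, and 4 of the 6 endothelial markers were under 1 TPM in every library. Pecam1 averaged 0.882 TPM in CSE and 1.73 TPM in PBS, and Vwf 1.45 and 0.720 TPM, and neither was called. The leukocyte gene Ptprc averaged 0.231 TPM in CSE and 0.137 TPM in PBS. Of the other immune markers, Csf1r was called higher in CSE in the count fit (log2 change 0.94 ± 0.21 SE, edgeR adjusted p = 0.0147). It had 253 summed counts in CSE and 125 in PBS. Its TPM overlapped between the groups, with means of 2.00 in CSE and 1.76 in PBS. Cd68 averaged 3.12 TPM in CSE and 3.16 TPM in PBS and was not called. The labels do not tell whether each library had its own culture; p-values therefore cover the spread among these 6 libraries, which could be technical.

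In CSE, 9 Wnt module genes fell and 0 rose. The genes that fell were 5 ligands (Wnt7a, Wnt10a, Wnt4, Wnt9a and Wnt7b), 3 receptors (Ror1, Fzd4 and Fzd2) and Apc, with log2 changes of CSE over PBS between -1.64 and -0.34. Axin2 did not pass the test. These calls came from edgeR's quasi-likelihood test at an adjusted p under 0.05 (Benjamini-Hochberg, over all 13451 genes tested); 38 members were tested, 19 had too few counts, and 29 of those tested were not called. Over all genes tested, 11.4% were called, 7.12% as lower and 4.32% as higher in CSE. DESeq2 called 8 members lower and 0 higher, beside 921 lower and 645 higher over all genes. In limma on log2(TPM + 1), 6 members were called lower and 0 higher, beside 774 lower and 224 higher over all genes. At an unadjusted p under 0.05 edgeR gave 17 members lower and 0 higher. That count was not taken over all genes, so it has no share to be weighed against.

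The median log2 change of the 38 tested members was -0.20, beside 0.006 over all genes tested. A fitted change below 0 was found for 31 members and one above 0 for 7, and 49.1% of all genes tested had one below 0. In CPM, the CSE libraries all lay under the PBS libraries for 19 members, beside 16.2% of all genes tested, and all above them for 2 members, Fzd8 and Tcf7, beside 15.1%. In bulk RNA, fewer cells making a transcript and less of it per cell cannot be told apart. Summed TPM of the mesothelial markers lay between 60.8 and 69.1 in CSE and between 195 and 220.4 in PBS, with Msln, Upk3b and Lrrn4 called lower, Wt1 not called and Calb2 listed at 0. Summed TPM of the alveolar type 1 markers lay between 634 and 693 in CSE and between 1071 and 1129 in PBS, with 5 of 6 called lower, and that of the epithelial markers between 604 and 690 in CSE and between 1162 and 1280 in PBS, with 3 of 4 tested called lower. Summed TPM of the fibroblast markers lay between 13.2 and 15.02 in CSE and between 18.0 and 18.9 in PBS, with Col1a1 called lower, Pdgfra called higher and 6 of 8 markers under 1 TPM in every library. Not every marker set shifted in this way. Summed TPM of the alveolar type 2 markers overlapped, at 44.85 to 51.84 in CSE and 50.29 to 60.59 in PBS. Of the 5 alveolar type 2 markers tested, 1 was called lower. The sums of the endothelial markers and of the immune markers also overlapped between the groups. The part of the marker shifts in the Wnt results was not tested.

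The number of members called lower changed with the library left out, and so did the number over all genes. For members it was 8 without CSE replicate 1, 6 without CSE replicate 2, 5 without CSE replicate 3, 9 without PBS replicate 1, 11 without PBS replicate 2 and 5 without PBS replicate 3. The 2 further calls without PBS replicate 2 were Fzd5 and Wls. Genes called lower over all genes numbered 958 with all libraries. In the same order, they numbered 664, 578, 554, 974, 981 and 647 with a library left out. Wnt7a, Wnt10a, Ror1 and Fzd4 were called lower under each of the 16 alternative settings run.

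**Figure D1:**
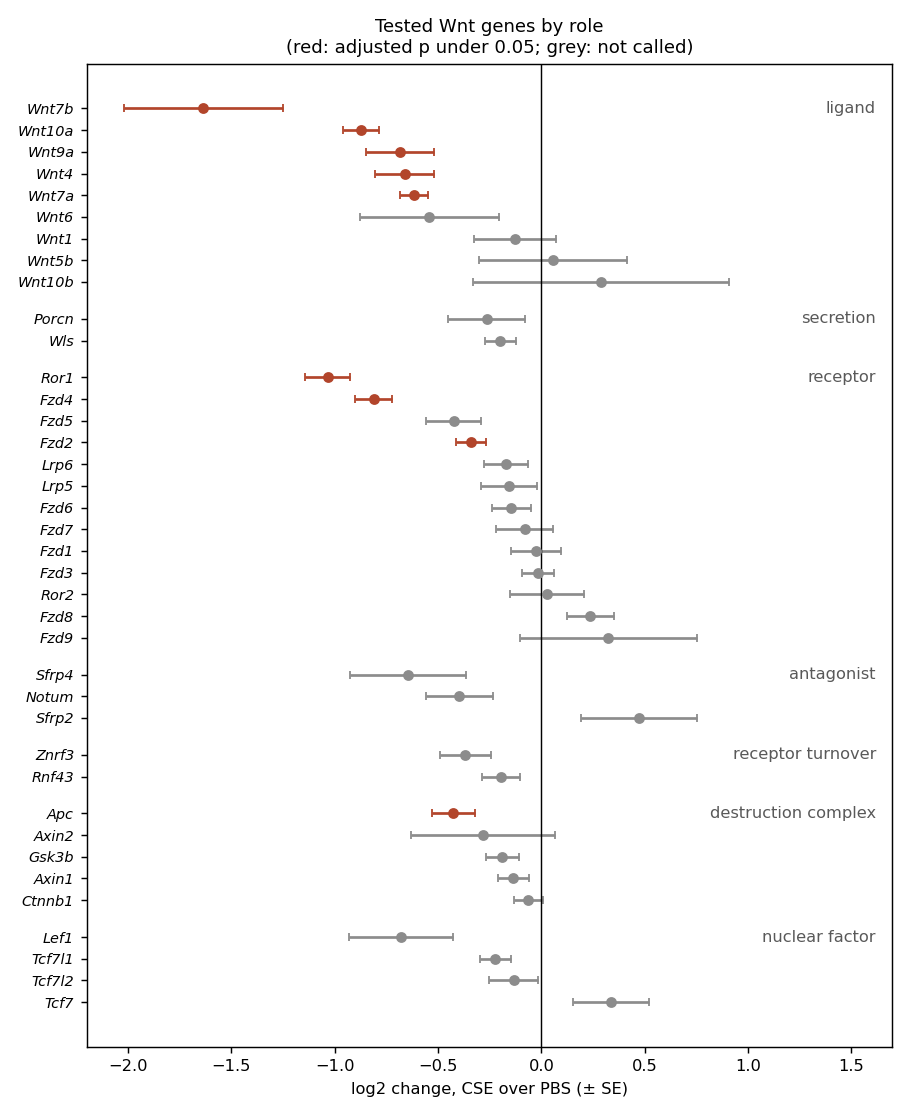
Log2 change of CSE over PBS from the edgeR count fit (x axis, bars ± SE) for the 38 tested members (rows), grouped by role. Red points are the 9 called members, which all lie below 0, from Fzd2 at -0.34 to Wnt7b at -1.64, and grey points are the 29 that were not called.

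Ligands held the most calls: 5 of 9 tested ligands were called lower, and the median log2 change over the 9 was -0.62. Wnt7a, a ligand best known from limb, nervous system and reproductive tract development, was the most abundant ligand by TPM. Its level was 87.1, 81.8 and 73.0 TPM in the CSE libraries, and 126.7, 127.4 and 139.9 TPM in the PBS libraries. The highest CSE library lay well below the lowest PBS library. The log2 change in the count fit was -0.62 ± 0.07 (SE; edgeR adjusted p = 0.000201), with means of 80.7 ± 7.14 TPM in CSE and 131 ± 7.45 TPM in PBS (SD, n = 3 each). The gene lies at chr6:91363981-91411363 on the minus strand of GRCm38.

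Wnt10a, known for its role in teeth, skin and hair, was the next most abundant ligand. It had 21.3, 22.8 and 18.9 TPM in the CSE libraries, and 38.9, 43.8 and 39.5 TPM in the PBS libraries. The groups did not overlap, and the spread within each was small against the gap between them. Its means were 21.0 ± 1.95 TPM in CSE and 40.7 ± 2.71 TPM in PBS (SD, n = 3 each), and its log2 change was -0.87 ± 0.09 (SE; edgeR adjusted p = 9.49e-05), the smallest p of the module. Wnt10a starts 6193 bases past the end of Wnt6, on chromosome 1 at 74791516 to 74804179. Wnt6 had 0.412, 1.11 and 0.549 TPM in CSE and 1.11, 1.02 and 1.4 TPM in PBS, where the groups overlapped. In CPM, all its CSE values lay under all its PBS values. It was not called, at a log2 change of -0.54 ± 0.34 (SE; edgeR adjusted p = 0.344).

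Wnt4, which acts in kidney, reproductive tract and mammary development, was far less abundant than Wnt7a by TPM. Its level was 3.47, 4.23 and 4.11 TPM in the CSE libraries, and 6.39, 7.63 and 5.92 TPM in the PBS libraries. All CSE values lay under all PBS values. The log2 change was -0.66 ± 0.14 (SE; edgeR adjusted p = 0.0127), and 7.90% of the 31-base words of its transcripts also occurred in other annotated genes. The call was lost in limma without a TPM filter (adjusted p = 0.119), and the range over the settings run was 1.85e-05 to 0.119.

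Wnt9a, a ligand of joint and skeletal development, was measured with few reads. The CSE libraries gave 49, 82 and 56 estimated counts at 2.00, 1.63 and 1.54 TPM, and the PBS libraries 79, 98 and 118 counts at 2.84, 2.67 and 3.19 TPM. The TPM ranges of the groups did not overlap. The log2 change was -0.68 ± 0.16 (SE; edgeR adjusted p = 0.021). The adjusted p was 0.104 without CSE replicate 2, 0.0962 without CSE replicate 3 and 0.0821 without PBS replicate 3, and over all settings run it lay between 0.00865 and 0.193, with the call also lost in the limma fits.

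Wnt7b, the ligand of developing lung epithelium, was close to the limit of detection. It had 8, 6 and 9 estimated counts in the CSE libraries, and 20, 27 and 25 in the PBS libraries. These correspond to 0.348, 0.127 and 0.263 TPM in CSE and to 0.765, 0.786 and 0.689 TPM in PBS. The groups did not overlap, and the log2 change of -1.64 ± 0.38 (SE; edgeR adjusted p = 0.0197) was the largest drop of the called members and the least precise. The adjusted p was 0.118 without CSE replicate 2, 0.0621 without CSE replicate 3 and 0.0582 without PBS replicate 3, in a range of 0.0042 to 0.118 over the settings run. DESeq2 gave it no adjusted p, and 5.43% of its 31-base words occurred in another annotated gene.

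The less abundant called ligands lie on GRCm38 at chr4:137277489-137299726 (Wnt4), chr11:59306928-59333552 (Wnt9a) and chr15:85535437-85582473 (Wnt7b). The summed TPM of all 19 ligands was 118.5, 115.5 and 102.5 in the CSE libraries, against 181, 188 and 195 in the PBS libraries. Wnt7a and Wnt10a together made up 91.5%, 90.6% and 89.7% of that sum in CSE, and 91.4%, 91.2% and 92.0% in PBS. The ligand pool was thus lower in every CSE library, while the share of its leading pair overlapped between the groups. The other 17 ligands summed to 10.04, 10.9 and 10.6 TPM in CSE and to 15.6, 16.6 and 15.6 TPM in PBS.

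Wnt1, Wnt5b and Wnt10b were tested and not called, with log2 changes of -0.13, 0.06 and 0.29. Wnt1, first known as a mammary oncogene of the mouse, had 2.18, 2.17 and 2.75 TPM in CSE and 2.43, 3.15 and 2.67 TPM in PBS, which overlapped. Of the 10 ligands with too few counts for the test, Wnt11 had the most, with 0, 6 and 9 counts in CSE and 10, 5 and 13 in PBS. Its depth-scaled ratio of CSE over PBS was 0.516, with an exact 95% interval of 0.256 to 0.999. Without the filter on low counts edgeR gave Wnt11 an adjusted p of 0.473, in a range of 0.276 to 0.658 over the settings that tested it. Wnt2b had 16 and 8 summed counts in CSE and PBS, Wnt16 8 and 5, Wnt5a 7 and 5, and Wnt2, Wnt3, Wnt3a, Wnt8a, Wnt8b and Wnt9b no more than 2 in either group. Wnt2 and Wnt5a are ligands of lung mesenchyme, and both had too few counts here for the test. Such intervals reflect counting error alone, because counts were pooled over the libraries of a group and the spread among libraries was left out. PCR copies of a molecule were not marked and may be counted more than once, so even the counting error may be understated.

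**Figure D2:**
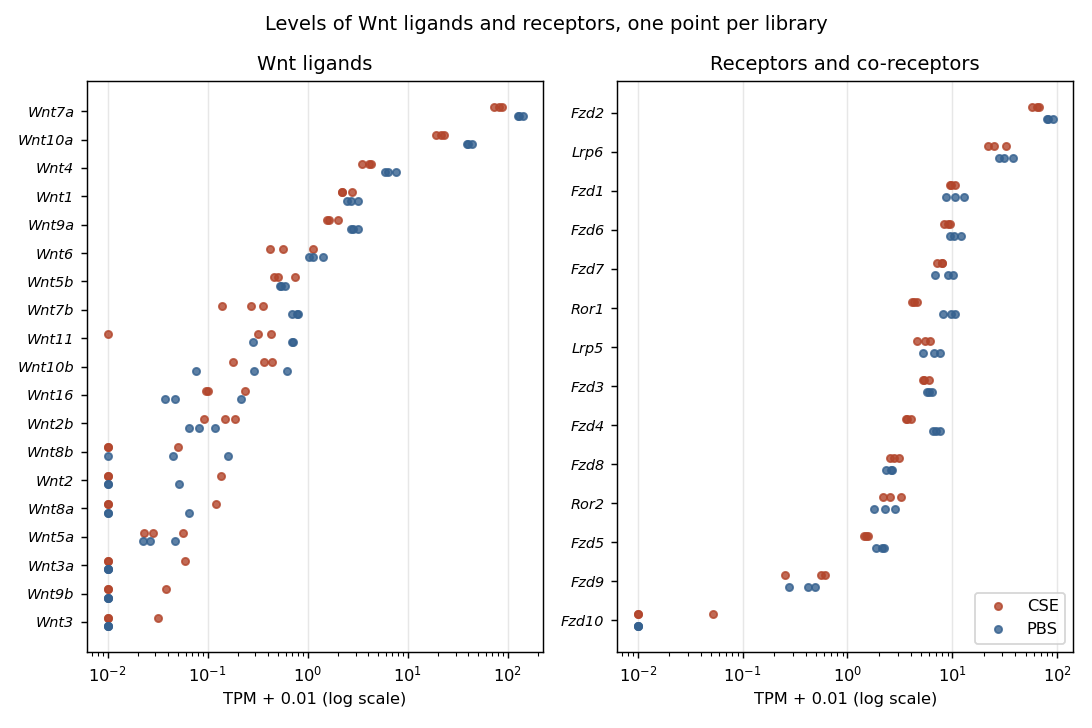
TPM of the 19 ligands (left) and the 14 receptors and co-receptors (right) in each library, on a log x axis with the small constant given on the axis added so that values listed at 0 can be drawn. In each row CSE points (red) are drawn on the upper line and PBS points (blue) on the lower; Wnt7a and Wnt10a lead the ligands and Fzd2 leads the receptors in both groups.

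The secretion genes were not called: 0 of 2 passed in edgeR, DESeq2 or limma on log2(TPM + 1), and 1, Wls, had an unadjusted p under 0.05. Wls, the carrier that every lipid-modified Wnt needs to leave the cell, had 128, 119.5 and 118 TPM in the CSE libraries, and 148, 138 and 163 TPM in the PBS libraries. All CSE values lay under all PBS values, by a small margin. The log2 change was -0.20 ± 0.07 (SE; edgeR adjusted p = 0.114); the adjusted p was 0.0375 with a GC and length trend removed and 0.0309 without PBS replicate 2, in a range of 0.0309 to 0.315 over the settings run. Wls-206, annotated for nonsense-mediated decay, had 37.4, 32.9 and 35.3 TPM in CSE and 49.5, 45.6 and 63.7 TPM in PBS. The coding Wls-201 had 49.8, 51.9 and 44.7 TPM in CSE and 52.5, 49.1 and 56.0 TPM in PBS, which overlapped. Porcn, the acyltransferase, had 3.6, 3.00 and 3.30 TPM in CSE and 4.50, 4.38 and 3.99 TPM in PBS. Its log2 change was -0.27 ± 0.19 (SE; edgeR adjusted p = 0.408).

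Among receptors, 3 of 13 tested were called lower, and the median log2 change over the 13 was -0.15. Fzd2, a Frizzled for both beta-catenin-dependent and independent signalling, was the most abundant receptor by TPM. Its level was 63.7, 67.7 and 57.6 TPM in the CSE libraries, and 82.2, 80.2 and 90.7 TPM in the PBS libraries. The groups did not overlap. The log2 change of -0.34 ± 0.07 (SE; edgeR adjusted p = 0.0126) was the smallest among the called members. The adjusted p was 0.0686 without CSE replicate 1, 0.0836 without CSE replicate 3 and 0.0584 without PBS replicate 3, in a range of 0.00115 to 0.102 over the settings run.

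Ror1, a receptor tyrosine kinase-like protein that binds Wnt5a, showed the largest drop among the receptors. It had 4.31, 4.58 and 4.14 TPM in the CSE libraries, and 9.74, 8.07 and 10.5 TPM in the PBS libraries. The CSE libraries were tightly grouped and lay far below all PBS libraries. The means were 4.35 ± 0.225 TPM in CSE and 9.45 ± 1.25 TPM in PBS (SD, n = 3 each), and the log2 change was -1.03 ± 0.11 (SE; edgeR adjusted p = 0.000134). Its paralogue Ror2 had 3.23, 2.18 and 2.56 TPM in CSE and 2.26, 1.78 and 2.84 TPM in PBS. The groups overlapped for Ror2, whose log2 change was 0.03.

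Fzd4, the receptor for the non-Wnt ligand norrin as well as for Wnts, followed the same direction. Its level was 3.67, 4.01 and 3.59 TPM in the CSE libraries, and 6.47, 6.98 and 7.55 TPM in the PBS libraries. The groups did not overlap. The means were 3.76 ± 0.221 TPM in CSE and 7.0 ± 0.544 TPM in PBS (SD, n = 3 each), with a log2 change of -0.81 ± 0.09 (SE; edgeR adjusted p = 0.000173). On GRCm38 the called receptor genes lie at chr11:102604396-102608058 (Fzd2), chr4:100095791-100444765 (Ror1) and chr7:89404355-89413134 (Fzd4).

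The other 10 tested receptors were not called. Fzd5, an epithelial Frizzled, came nearest on the lower side, with a log2 change of -0.42 ± 0.13 (SE; edgeR adjusted p = 0.0669), and 17.3% of its 31-base words occurred in other genes. Fzd8 had the smallest p on the higher side, at 0.24 ± 0.11 (SE; edgeR adjusted p = 0.22). It had 3.08, 2.80 and 2.53 TPM in CSE and 2.31, 2.56 and 2.63 TPM in PBS. These overlapped, whereas in CPM all CSE libraries lay above all PBS libraries. With a GC and length trend removed Fzd8 was called higher, at 0.40 (edgeR adjusted p = 0.0316, in a range of 0.0316 to 0.773 over the settings run). The co-receptors of the beta-catenin branch, Lrp5 and Lrp6, had log2 changes of -0.16 and -0.17, and the 6 remaining tested members of this role, Fzd1, Fzd3, Fzd6, Fzd7, Fzd9 and Ror2, lay between -0.15 and 0.33. Fzd10 had 1 count in CSE and 0 in PBS.

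**Figure D3:**
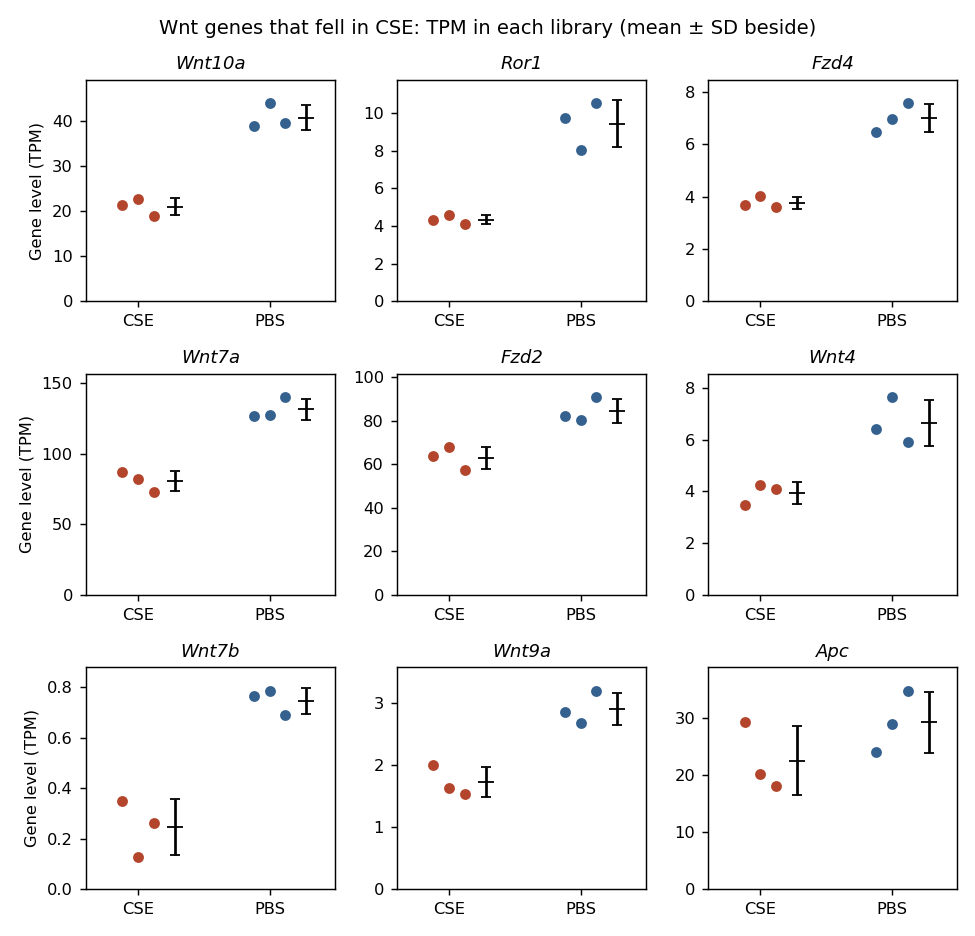
TPM (y axes, each starting at 0) of the 9 called members in each CSE library (red, left) and PBS library (blue, right), with the mean ± SD of 3 libraries beside the points. The groups are apart in every panel except Apc, whose CSE value of 29.3 TPM lies above 2 PBS values.

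The stretch from 250 bases before to 50 bases after the annotated start was held in the RefSeq promoter table (GRCm38.p6) for 5 of the 9 called members: Wnt7a, Wnt4, Wnt9a, Fzd4 and Ror1. They were searched on both strands for CTTTGA and CTTTGT, core letters of Tcf and Lef sites, for TNGCGTG, the core of aryl hydrocarbon receptor sites, and for TGACNNNGC, the core of antioxidant response elements; these occur in 16.0%, 18.7%, 5.07% and 12.4% of the table's 32851 promoters. Of the 5 promoters, 1 held a match, so no matches overlapped; a match is a description of letters, not a site. The Ror1, Wnt7a and Fzd4 promoters are printed because these genes were called lower under every setting run; capitals mark the single match, CTTTGA on the minus strand of Ror1, which begins at base 46 of 300 and 205 bases before the start. The stretches are chr4:100095541-100095840 (plus strand), chr6:91411304-91411603 (minus strand) and chr7:89404116-89404415 (plus strand).
Ror1: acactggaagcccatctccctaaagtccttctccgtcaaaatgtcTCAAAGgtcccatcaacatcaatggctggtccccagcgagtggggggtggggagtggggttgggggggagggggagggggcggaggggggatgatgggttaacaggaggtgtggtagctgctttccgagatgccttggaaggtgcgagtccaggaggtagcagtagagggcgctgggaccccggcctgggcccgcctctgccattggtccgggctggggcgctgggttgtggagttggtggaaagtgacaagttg
Wnt7a: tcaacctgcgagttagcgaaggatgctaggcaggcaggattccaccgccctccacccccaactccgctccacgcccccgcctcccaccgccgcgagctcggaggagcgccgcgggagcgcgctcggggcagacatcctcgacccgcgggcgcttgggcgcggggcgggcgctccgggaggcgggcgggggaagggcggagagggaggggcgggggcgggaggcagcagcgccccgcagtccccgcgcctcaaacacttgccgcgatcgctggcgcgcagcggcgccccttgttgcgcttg
Fzd4: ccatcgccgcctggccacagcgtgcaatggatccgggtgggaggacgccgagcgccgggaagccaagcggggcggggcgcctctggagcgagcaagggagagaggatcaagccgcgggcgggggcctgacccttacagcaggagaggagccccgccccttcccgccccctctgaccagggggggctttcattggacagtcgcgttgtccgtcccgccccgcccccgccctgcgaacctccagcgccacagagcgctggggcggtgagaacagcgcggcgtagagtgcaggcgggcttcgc
They differ in base composition: the counts of CG pairs were 10 in Ror1, 42 in Wnt7a and 32 in Fzd4, beside a median of 7 over the table, and Wnt4 and Wnt9a had 51 and 58.

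No secreted antagonist was called: 0 of 3 tested passed in edgeR, DESeq2 or limma on log2(TPM + 1), and 2 had an unadjusted p under 0.05, both lower in CSE. Notum, the secreted enzyme that strips the lipid from Wnt proteins, was the most abundant of them. It had 7.35, 5.85 and 6.09 TPM in the CSE libraries, and 9.27, 9.48 and 7.57 TPM in the PBS libraries. The groups lay close to each other without overlapping. The log2 change was -0.40 ± 0.16 (SE; edgeR adjusted p = 0.148). A transcript annotated as a retained intron, Notum-201, held 53.5%, 48.1% and 71.0% of its TPM in CSE and 65.7%, 52.9% and 62.2% in PBS, so more than the coding transcript entered this level.

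Sfrp4, a soluble Frizzled-like decoy, had a log2 change of -0.64 ± 0.28 (SE; edgeR adjusted p = 0.176). Sfrp2, another decoy, had 38, 76 and 44 counts in CSE and 28, 55 and 27 in PBS, and a log2 change of 0.47 ± 0.28 (SE; edgeR adjusted p = 0.323). Its direction differed between settings: the change was -0.58 with an effective-length offset and -0.45 in limma on log2(TPM + 1). The other 7 antagonists had too few counts for the test. Of them Dkk2, an antagonist that binds Lrp5 and Lrp6, had 3, 10 and 7 counts in CSE, and 1, 1 and 2 in PBS. Its depth-scaled ratio of CSE over PBS was 4.81, with an exact 95% interval of 1.61 to 19.4 that covers counting error only; without the filter on low counts edgeR gave an adjusted p of 0.155, and limma without a TPM filter 0.258. Summed counts in CSE and PBS were 18 and 14 for Dkk1, 12 and 15 for Dkk4, 22 and 19 for Wif1, 7 and 2 for Sfrp1 and 1 and 5 for Sfrp5, and Dkk3 was listed at 0.

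Rnf43 and Znrf3, the ubiquitin ligases that remove Frizzled receptors from the cell surface, were not called: 0 of 2 passed in edgeR, DESeq2 or limma on log2(TPM + 1), and 1 had an unadjusted p under 0.05. Rnf43 had 10.5, 9.54 and 7.32 TPM in the CSE libraries, and 9.29, 12.1 and 10.2 TPM in the PBS libraries. In TPM the groups overlapped, whereas in CPM all CSE libraries lay under all PBS libraries. Its log2 change was -0.19 ± 0.09 (SE; edgeR adjusted p = 0.22), and that of Znrf3 was -0.37 ± 0.12 (SE; edgeR adjusted p = 0.0826). Nkd1, a cytoplasmic feedback inhibitor, had 5 counts in CSE and 4 in PBS.

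In the destruction complex 1 of 5 genes was called. Apc, the scaffold that holds beta-catenin in the complex, had 29.3, 20.1 and 18.1 TPM in the CSE libraries, and 24.1, 28.8 and 34.7 TPM in the PBS libraries. The TPM values of the groups overlapped through CSE replicate 1, whereas in CPM, the scale nearest to the test, all CSE libraries lay under all PBS libraries. The log2 change was -0.43 ± 0.10 (SE; edgeR adjusted p = 0.0236). The adjusted p was 0.106 without CSE replicate 2, 0.107 without CSE replicate 3 and 0.0991 without PBS replicate 3, in a range of 5.72e-05 to 0.489 over the settings run; the call was also lost in the limma fits and with an effective-length offset. Apc lies on chromosome 18.

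Axin2 is both a part of the complex and a transcript that beta-catenin raises. It had 12, 18 and 16 estimated counts in the CSE libraries, and 11, 16 and 29 in the PBS libraries. These correspond to 0.488, 0.507 and 0.696 TPM in CSE and to 0.640, 0.515 and 0.963 TPM in PBS. The groups overlapped, with PBS replicate 3 the highest library. Means were 0.564 ± 0.115 TPM in CSE and 0.706 ± 0.231 TPM in PBS (SD, n = 3 each), and the log2 change was -0.28 ± 0.35 (SE; edgeR adjusted p = 0.655). Without PBS replicate 3 it was 0.06 (edgeR adjusted p = 0.95, in a range of 0.526 to 0.95 over the settings run). At 46 summed counts in CSE and 56 in PBS, the SE of 0.35 was wide beside the changes of -0.62 in Wnt7a and -0.81 in Fzd4. The smallest change detectable in Axin2 was not tested. Much of what was counted came from Axin2-203, annotated as a processed transcript, which held 42.1%, 83.6% and 94.4% of the TPM in CSE and 82.4%, 63.5% and 68.6% in PBS.

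Ctnnb1, which encodes beta-catenin, was the most abundant member. It had 771, 703 and 693 TPM in the CSE libraries, and 732, 785 and 803 TPM in the PBS libraries. The groups overlapped, and the log2 change was -0.06 ± 0.07 (SE; edgeR adjusted p = 0.621). A transcript annotated as a retained intron, Ctnnb1-215, held 71.6%, 71.8% and 73.3% of this TPM in CSE and 72.5%, 70.2% and 64.9% in PBS, and 35.3% of its 31-base words occur in other genes. The coding Ctnnb1-201 alone had 212, 190.4 and 179 TPM in CSE and 193, 219.9 and 269 TPM in PBS, which also overlapped. The kinase gene Gsk3b averaged 126 TPM in CSE and 153 TPM in PBS, with a log2 change of -0.19 ± 0.08 (SE; edgeR adjusted p = 0.163). Axin1, the constitutive scaffold, had a log2 change of -0.14 (edgeR adjusted p = 0.284).

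Of the nuclear factors, 0 of 4 were called by edgeR, DESeq2 or limma on log2(TPM + 1), and 2 had an unadjusted p under 0.05, both lower in CSE. Tcf7l1, mostly a repressor of Wnt target genes, was the most abundant at 44.0, 38.1 and 35.4 TPM in the CSE libraries, and 43.6, 50.3 and 46.6 TPM in the PBS libraries. The groups overlapped in TPM through CSE replicate 1, whereas in CPM all CSE libraries lay under all PBS libraries. The log2 change was -0.22 ± 0.07 (SE; edgeR adjusted p = 0.0824). Tcf7l2 had a log2 change of -0.13 and Tcf7 of 0.34 ± 0.18 (SE; edgeR adjusted p = 0.281). Lef1 had a log2 change of -0.68 ± 0.25 (SE, edgeR adjusted p = 0.111) on 19, 42 and 27 counts in CSE and 28, 62 and 48 in PBS. In CPM all CSE libraries lay under all PBS libraries. Its TPM overlapped, at 0.906, 0.996 and 1.415 in CSE and 1.047, 1.685 and 1.257 in PBS. The Lef1 change was -0.215 with an effective-length offset (edgeR adjusted p = 0.7208). In limma on log2(TPM + 1) it was -0.144 (limma adjusted p = 0.7535).

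The transcripts of Lef1 differed more than its total did. Lef1-201, the full-length transcript, held 22.8%, 36.7% and 15.6% of the gene's TPM in the CSE libraries, and 73.9%, 77.1% and 72.3% in the PBS libraries. Lef1-203 held 46.0%, 54.7% and 36.4% in the CSE libraries, and 0.613%, 0% and 6.38% in the PBS libraries. For both transcripts the groups were far apart. The estimated counts were small, at 33.2 and 108.3 for Lef1-201 and 37.8 and 2.1 for Lef1-203, summed over the CSE and the PBS libraries. This rule, groups apart with means at least 30 percentage points apart in a gene averaging at least 1 TPM, was chosen after the values were seen. Only transcripts with a mean share of at least 5% of their gene were compared. The rule held for 6 of 65 member transcripts in 19 genes, beside 0.624% of the transcripts compared over all genes. These 6 are pairs within Lef1, Sfrp2 and Wnt9a, and shares within a gene are not independent. As the rule followed from these values, the contrast with all genes lends no support. An exact two-sided permutation test of the shares gave p = 0.1 for Lef1-201 and for Lef1-203, the smallest that 3 against 3 libraries allow; the transcripts were picked for being apart, so it lends no support.

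The pair shares 11 of 12 exons on chromosome 3 and differs in the first. The first exon of Lef1-201 has 1208 bases, from 131110471 to 131111678, and carries 69 of its 397 codons, the stretch that binds beta-catenin. That of Lef1-203 has 24 bases, from 131112797 to 131112820, and 3 of its 331 codons. All 1208 bases of the Lef1-201 exon lie inside Gm43352, a gene annotated on the opposite strand whose transcripts are not in the files, and 34.3% of the 31-base words of Lef1-201 occur in other genes. Without a stated strand setting, reads of Lef1 and of its antisense gene cannot be told apart.

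Sfrp2 and Wnt9a held the other 4 such transcripts. The coding transcript Sfrp2-201 held 85.6%, 78.4% and 68.2% of the gene's TPM in the CSE libraries, and 26.9%, 22.3% and 51.8% in the PBS libraries. Sfrp2-203, a 382-base processed transcript, held 0%, 10.6% and 14.0% in CSE and 73.1%, 49.9% and 29.3% in PBS. Sfrp2-201 led in every CSE library and in PBS replicate 3, and Sfrp2-203 led in PBS replicates 1 and 2, on 2.1 and 16.8 summed counts of Sfrp2-203 in CSE and PBS. Wnt9a-201 held 32.1%, 30.5% and 30.6% in CSE and was listed at 0 in PBS, but the annotated exons of Wnt9a-201 and Wnt9a-202, 3320 and 3318 bases, differ by 11 bases found in Wnt9a-201 alone and 9 in Wnt9a-202 alone.

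**Figure D4:**
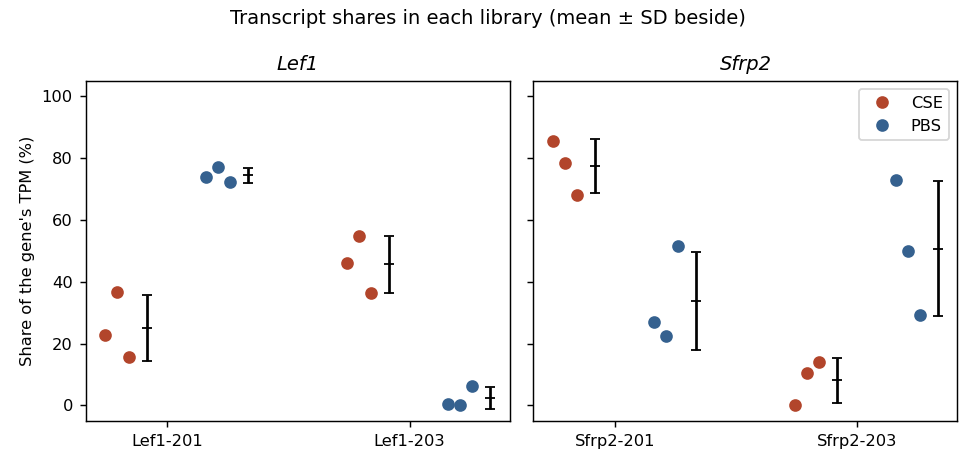
Share of the gene's TPM (y axis, percent) held by Lef1-201 and Lef1-203 (left) and by Sfrp2-201 and Sfrp2-203 (right) in each CSE library (red) and PBS library (blue), with the mean ± SD of 3 libraries beside the points. Lef1-201 averages 25.1% in CSE and 74.4% in PBS, and Lef1-203 averages 45.7% in CSE and 2.33% in PBS.

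Among other genes of the pathway, 44 of 56 matched were tested, and 6 were called lower, 1 higher and 37 not called, with a median log2 change of -0.14. Over all genes tested, 7.12% were called lower and 4.32% higher. Apcdd1, a membrane inhibitor of Wnt signalling, averaged 6.61 ± 1.03 TPM in CSE and 16.2 ± 3.68 TPM in PBS (SD, n = 3 each), a log2 change of -1.04 ± 0.10 (SE; edgeR adjusted p = 5.87e-05). The atypical cadherin Celsr2, of the planar polarity branch, averaged 25.4 ± 1.61 TPM in CSE and 46.9 ± 4.99 TPM in PBS (SD, n = 3 each), a log2 change of -0.93 ± 0.08 (SE; edgeR adjusted p = 3.39e-05). The co-repressors Tle1 and Tle4 were called in opposite directions: Tle1 averaged 29.1 TPM in CSE and 17.7 TPM in PBS, and Tle4 7.29 TPM in CSE and 13.3 TPM in PBS. Trabd2b, a protease that cleaves Wnt proteins, the glypican Gpc4 and the co-activator Bcl9l were the other genes called lower, with log2 changes of -0.54, -0.54 and -0.33. Gpc4 had an edgeR adjusted p of 0.0575 without CSE replicate 1 and 0.082 without CSE replicate 3, and Bcl9l of 0.0788 and 0.0896; with a GC and length trend removed Bcl9l was not called either, and its adjusted p reached 0.677 over the settings run.

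Of 29 genes listed as responding to beta-catenin in one tissue or another, 20 were tested, and 9 of the 29 are members of the module. Of those tested, 4 were called lower, 1 higher and 15 not called, with a median log2 change of -0.31. The shares over all genes tested were 7.12% lower and 4.32% higher. The cell cycle gene Ccnd1 averaged 466 ± 33.7 TPM in CSE and 732 ± 106 TPM in PBS (SD, n = 3 each), a log2 change of -0.57 ± 0.11 (SE; edgeR adjusted p = 0.00543). Ephb3, an ephrin receptor, averaged 29.9 TPM in CSE and 45.9 TPM in PBS (edgeR adjusted p = 0.00462). In limma without a TPM filter neither was called, at adjusted p values of 0.0535 for Ccnd1 and 0.0867 for Ephb3, the highest over their settings. Apcdd1, which stands in both lists, and Sox9 were the other genes called lower, and Sox9 was no longer called without CSE replicate 2, CSE replicate 3 or PBS replicate 3 (edgeR adjusted p = 0.131, 0.113 and 0.126; highest over the settings run, 0.194). The intestinal factor Cdx2 was called higher on 52 counts in CSE and 8 in PBS. Myc averaged 148 TPM in CSE and 137 TPM in PBS and was not called (edgeR adjusted p = 0.132), nor were Lgr5 (edgeR adjusted p = 0.156) and Sp5 (edgeR adjusted p = 0.194).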

How the data were processed

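RNA-seq of 6 MLE-12 libraries, 3 CSE and 3 PBS by the sample titles, was used as deposited. Each file lists 118489 transcripts with an estimated count, a TPM value and an effective length, per the file headers. TPM is the authors' estimated count over effective length, brought to 1 common total per library, so it holds no depth. Per the submitters' processing notes, GRCm38, fastp 0.20.1, kallisto 0.46.2, DESeq2 1.40.2 and FastQC 0.12.1 were used, with no role stated; the index, trimming and strand settings were not given. kallisto splits reads shared by transcripts with a model, so counts of similar genes and transcript shares are estimates. The extraction protocol in the labels mentions lung tissue, although every sample is described as the cell line.

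Transcripts were matched by versioned identifier to GENCODE vM21 (116816 of 118489, 98.6%); the others held 0.638% to 0.664% of counts and were left out. Estimated counts were summed per gene and rounded. edgeR 4.0.16 (R 4.3.3; filterByExpr with a minimum count of 10, TMM, quasi-likelihood test, two-sided, Benjamini-Hochberg, threshold 0.05) was fitted over all 6 libraries with treatment as the term; SE is the log2 change over the square root of F. It was first tested on simulated data. Alternatives were RLE size factors, DESeq2 1.42.0, no filter, limma 3.58.1 on log2(TPM + 1) and log2(TPM + 0.1) of genes with mean TPM of at least 1, or all genes, an effective-length offset, a GC and length trend removed by loess, a replicate block, and leaving out each library. Members under the filter have summed counts and an exact 95% interval of the depth-scaled ratio. No 2 libraries of a group agreed within counting noise.

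The naming rule holds no measured value, but the module and the gene lists were picked for study with earlier results of these data known, so no p was adjusted over a list and no list was tested. Named with every library value are the called members, Axin2 and the most abundant member of each role; other pathway and response genes are named if called, and a few others for their role. The pathway list's Trabd2a was not matched.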

Additional observations from a re-analysis of the deposited data

How the results depend on the processing

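The 1539 genes called became 998 and 985 in limma on log2(TPM + 1) and log2(TPM + 0.1), 584 in limma with no TPM filter, 1022 with the replicate block, and 837 to 1941 with a library left out; the lowest counts were 859 without CSE replicate 2, 837 without CSE replicate 3 and 963 without PBS replicate 3. Of all calls, 581 were higher and 958 lower in CSE, against 224 and 774 in limma on log2(TPM + 1), 220 and 765 with log2(TPM + 0.1), 1054 and 1145 with no filter on low counts, and 967 and 974 without PBS replicate 1. Members called lower numbered 9, against 4 in limma with no TPM filter, 6 with the replicate block (Apc, Fzd2 and Wnt9a lost), 5 with the replicate block and a GC and length trend removed (Fzd2, Wnt4, Wnt7b and Wnt9a lost; Wnt4 at an edgeR adjusted p of 0.0515), and 5 to 11 with a library left out. Members called higher numbered 0, and 1 (Fzd8) with the trend removed. The median log2 change over members was -0.28, -0.28 and -0.27 in the limma fits, and -0.24 to -0.18 with a library left out. Over all genes the median was -0.061, -0.065 and -0.035 in those limma fits, against 0.006 in the main fit. The Axin2 log2 change ran from -0.429 to 0.057 with a library left out; 0.057 came without PBS replicate 3. Causes were not tested.

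Deviations of same-numbered CSE and PBS libraries correlated at -0.124, 0.006 and -0.059, and those of differently numbered libraries at -0.085 to 0.129. The labels do not say whether a replicate number marks a shared culture or day, and correlations from 3 libraries a group cannot settle it. The replicate block also ended the call of Sox9 (edgeR adjusted p = 0.0636). DESeq2 gave Axin2 and Wnt7b no adjusted p, and the TPM filter removed both. The module's limits are 3 libraries a group, no stated separate cultures, 19 members with too few counts to test, and transcript shares resting on few counts.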
